A study of Mus musculus with 12 samples.

Results

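The genes described here encode the translation initiation factors eIF1 to eIF6 and the elongation factors eEF1 and eEF2 of mouse, together with a few proteins named for binding or modifying them. A gene was taken as a member where a probe set of the array carried its symbol alone and the symbol began with Eif1 to Eif6, Eef1 or Eef2, leaving out the eIF2 kinases named Eif2ak. This gave 45 genes of the 8251 named on the array, with 62 probe sets. For the 14 genes with several probe sets, the one of highest mean intensity over all arrays stands for the gene. The choice used gene names and mean levels, not differences between groups.

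RNA came from mouse spleen dendritic cells, which take up antigen and present it to T cells, sorted for high CD11c. They were divided into CD4+ cells, CD8+ cells and CD4- CD8- cells, called double negative (DN) here. Each subset was either used directly after isolation (fresh) or kept for 2 h at 37 °C in tissue culture medium first (cultured). That gives 6 groups of 2 arrays: fresh CD4+, fresh CD8+, fresh DN, cultured CD4+, cultured CD8+ and cultured DN. The labels name no strain, age, genotype or medium composition. They also do not say whether the arrays of a group came from separate animals, so a p-value here measures only how far these arrays spread, and that spread may be technical. One label of fresh CD8+ replicate 1 calls its cells CD4 positive, while its title and source call them CD8+, as which it was used. Its intensities of Cd8a (1210.4) and Cd4 (92.0) are given as a check of that choice.

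Initiation begins when eIF2, carrying GTP and the initiator tRNA, joins the small ribosomal subunit with eIF1, eIF1A, eIF3 and eIF5. The eIF4 factors bind the cap of the mRNA and unwind its leader so that the small subunit can scan to the start codon, where eIF5B joins the large subunit. eIF2B recharges eIF2 with GTP, and phosphorylated eIF2 blocks it, which is the step controlled by the eIF2 kinases. The 4E-BPs hold eIF4E away from eIF4G until mTOR phosphorylates them. In elongation, eEF1A brings each aminoacyl-tRNA and eEF2 moves the ribosome along. In dendritic cells, protein synthesis is known to be regulated as the cells mature. All of this acts through proteins and their phosphorylation, which arrays do not measure.

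The factors whose culture effect is described most fully below include the helicase genes Eif4a1 and Eif4a2, the tRNA carrier gene Eef1a1 and the 4E-BP gene Eif4ebp2, so their promoters are shown. Each line holds the 250 bases before the transcription start in RefSeq, build GRCm38.p6, 5′ to 3′ on the strand of the gene. Capitals mark the E-box CACGTG and the GC box GGGCGG, searched on both strands (the GC box reads CCGCCC on the other strand). The windows are chr11:69672424-69672673 on the minus strand for Eif4a1, chr16:23107218-23107467 on the plus strand for Eif4a2, chr9:78481725-78481974 on the minus strand for Eef1a1 and chr10:61452670-61452919 on the minus strand for Eif4ebp2.
Eif4a1: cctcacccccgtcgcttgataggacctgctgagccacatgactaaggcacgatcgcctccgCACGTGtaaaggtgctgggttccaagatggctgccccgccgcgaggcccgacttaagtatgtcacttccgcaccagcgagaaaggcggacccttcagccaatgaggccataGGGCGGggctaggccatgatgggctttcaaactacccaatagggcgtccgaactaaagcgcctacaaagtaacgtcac
Eif4a2: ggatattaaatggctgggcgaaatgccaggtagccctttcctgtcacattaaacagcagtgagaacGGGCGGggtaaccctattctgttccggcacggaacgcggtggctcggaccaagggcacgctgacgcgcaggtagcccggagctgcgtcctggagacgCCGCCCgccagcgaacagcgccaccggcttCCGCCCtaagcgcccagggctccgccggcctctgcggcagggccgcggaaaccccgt
Eef1a1: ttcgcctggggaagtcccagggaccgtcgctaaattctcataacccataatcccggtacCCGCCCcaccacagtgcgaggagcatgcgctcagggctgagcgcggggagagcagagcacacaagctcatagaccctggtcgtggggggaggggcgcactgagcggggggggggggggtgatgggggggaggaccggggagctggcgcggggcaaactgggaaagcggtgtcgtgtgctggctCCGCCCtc
Eif4ebp2: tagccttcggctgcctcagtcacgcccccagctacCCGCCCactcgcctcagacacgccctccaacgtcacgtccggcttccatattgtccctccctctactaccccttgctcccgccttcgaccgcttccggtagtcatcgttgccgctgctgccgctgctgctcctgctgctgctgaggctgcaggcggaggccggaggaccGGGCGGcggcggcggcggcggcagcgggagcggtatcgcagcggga

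The Eif4a1 window holds 1 E-box, 189 bases before the start, and 1 GC box, while the Eif4a2 window holds 0 E-boxes and 3 GC boxes. Both Eef1a1 and Eif4ebp2 have 2 GC boxes and 0 E-boxes there. A promoter entry was found for 37 of the 45 genes, with 51 windows in all because some genes have several starts. An E-box lay in a window of 9 of these 37 genes (24.3%), against 7.61% of 17491 coding genes. The 9 genes are Eef2, Eef2k, Eif1b, Eif3f, Eif3k, Eif4a1, Eif4e, Eif4h and Eif5a. Of the 5 of them that could be tested, Eif3f and Eif4a1 were called higher after culture and 0 were called lower. Over all tested probe sets 17% were called higher and 22.3% lower. The GC box lay in 27 of the 37 (73%, against 45.8% of coding genes), and the TGACGT motif of CREB and ATF factors in 8 (21.6%, against 8.43%). CCAAT was found in 10 (27%, against 39.5%) and TATAAA in 4 (10.8%, against 13.7%). Of 22 tested members with a GC box, 4 were called higher and 5 lower, and of 6 with TGACGT, 1 and 1. Of 7 with CCAAT, 2 were called higher and 1 lower, and of 3 with TATAAA, 1 and 0. A link between a motif and the calls was not tested. These are matches of letters, given as a description, and no binding was measured.

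The deposited intensities were already scaled to 1 level per array. They were put on a generalised log2 scale that stays defined below 0, log2((x + sqrt(x² + c²)) / 2) with c at 45.69, and differences below are on that scale with their SE. An intensity of 91.37 was taken as the detection floor. Of the 45 representatives, 37 lay above it on at least 2 of the 12 arrays and were tested, and 23 lay above it on all 12. The 8 not tested were Eef1b2, Eef1g, Eef2k, Eif2s3y, Eif4e, Eif4enif1, Eif4h and Eif5a. These probe sets gave no signal to compare, which says nothing of whether the genes were expressed. Eif4e, the cap-binding protein itself, ranged from -8.4 to 54.0, and Eif5a, a factor that helps ribosomes past difficult peptide bonds, from -135.2 to -2.7 and lowest of the members in mean. Eif2s3y, the Y-linked copy of the eIF2 gamma subunit gene, stayed between 1.3 and 31.8. Eef2k, the kinase that blocks eEF2, lay above the floor on 1 array only, at 98.0 in fresh CD4+ replicate 1. Each probe set has its own response, so an order of intensities between genes is not an order of RNA levels.

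The arrays differ in quality. The 3′ to 5′ intensity ratio of Gapdh, a sign of how complete the labelled RNA was, was 2.55 in fresh CD8+ replicate 1, 1.97 in cultured CD4+ replicate 1 and 1.34 in cultured DN replicate 1, against 0.89 to 1.04 on the other 9. For actin the 3′ to 5′ ratio ranks the arrays otherwise: it was 1.28 in cultured CD4+ replicate 2, 1.16 in cultured CD4+ replicate 1 and 1.15 in cultured DN replicate 2, and 0.91 in fresh CD8+ replicate 1. The alternative without 3 arrays rests on Gapdh alone. All 6 dendritic cell markers were detected on every array, with sums of 21528 to 36964 in fresh and 45083 to 62801 in cultured cells. The sums hide opposite changes. Group means of Cd74, H2-Aa and H2-Ab1 were higher after culture in every subset, and those of Itgax, Flt3 and Ciita were lower. In CD4+ cells Cd74 averaged 7313 fresh and 20074 cultured, and Flt3 2231 and 730.8. Cd8a averaged 1443 in fresh and 785.1 in cultured CD8+ cells and lay between -10.3 and 21.9 in the other groups. Summed markers of CD8+ dendritic cells ran from 659.2 to 15243 in fresh and from 689.8 to 6733 in cultured arrays, and those of CD8-negative ones from 1538 to 12062 and from 1956 to 6137. In CD4+ and DN cells, group means of Cd4, Ltb, Dtx1 and Sirpa were lower after culture and that of Irf4 was higher. Relb was higher in CD8+ and DN cells and lower in CD4+ cells. By contrast, the T cell genes Cd3e, Cd3g, Cd3d and Thy1 lay below the floor on all 12 arrays, and T cell markers summed to at most 194. Red cell markers summed to 165.3 to 829.7 in fresh and 165 to 2512 in cultured arrays, with Alas2 and Epb42 below the floor throughout. Summed B cell markers ran from 473.3 to 1357 in fresh and from 474.2 to 1350 in cultured arrays, and macrophage markers from 922.4 to 1861 and from 861.1 to 2810. The macrophage sums hide opposite changes too. Group means of Cd14 were higher after culture in every subset, in CD8+ cells 199.2 fresh and 2232 cultured. Those of Adgre1, C1qa, Csf1r and Vcam1 were lower in every subset, and C1qb went both ways. Neutrophil markers summed to 91.4 to 343.6 and 134.8 to 684.3 (S100a9, Mpo and Ngp below the floor throughout), and NK cell markers to 38.5 to 202.8 and 120.3 to 336.6 (Ncr1 below it). Plasma cell markers summed to 419.4 to 872.7 in fresh and 885.9 to 1228 in cultured arrays. Most of each sum was Xbp1, with group means of 432.8 to 632.8 fresh and 653.6 to 760.5 cultured. Prdm1 averaged 16.9 to 20.45 fresh and 95.25 to 180.8 cultured, Jchain went both ways and Sdc1 stayed dim. Plasmacytoid dendritic cell markers summed to 211.2 to 493.3 and 279.2 to 656.1. The part of these cells in the results was not tested.

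Individual translation factors differed after culture in both directions. Averaged over the subsets, 8 of the 37 tested members were called higher and 7 lower in cultured than in fresh cells. The genes called higher were Eif1a, Eif3f, Eif4a1, Eif6, Eef1a1, Eif1ax, Eif5b and Eif5, by 0.55 to 1.23 on the log2 scale. Those called lower were Eif2d, Eif4g3, Eif4b, Eif4ebp2, Eif2b2, Eef1akmt1 and Eif4a2, by -0.75 to -1.94. A call means a Benjamini-Hochberg adjusted p under 0.05 in limma over all 6159 tested probe sets. The members' shares, 21.6% higher and 18.9% lower, lie near the background of 17% higher and 22.3% lower over all tested probe sets, so the number of calls is not a result about these genes as a set. The members' median difference was -0.13, against -0.02 over all tested probe sets. In bulk RNA, fewer cells of a type and less RNA per cell cannot be told apart. With the experiment number of the labels as a block, Eif2s2 (adjusted p = 0.0456) and Eif1b (0.0354) passed as well in limma.

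**Figure D1:**
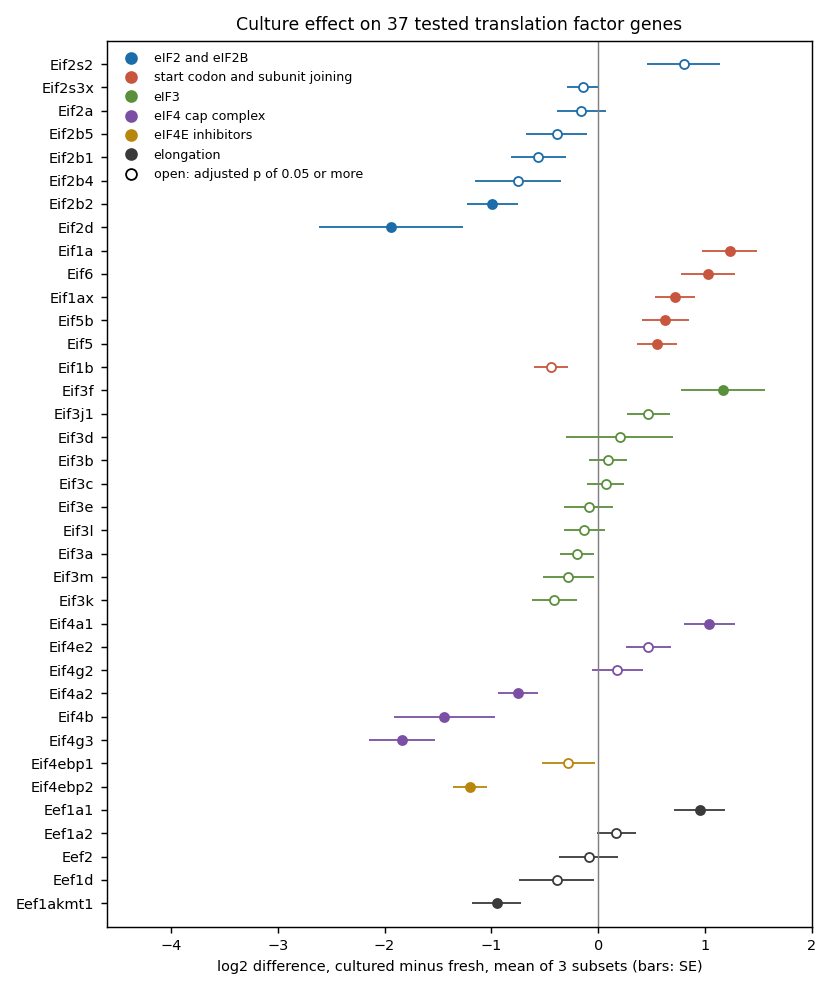
Mean culture effect of the 37 tested genes, as the log2 difference of cultured minus fresh averaged over the 3 subsets, with SE bars; colours give the role and filled points passed the limma test. Filled points lie on both sides of 0: the start codon and subunit joining genes have 5 filled points above 0, and the eIF4 group has 1 above and 3 below. Over all tested probe sets 17% were called higher and 22.3% lower.

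Among the factors of start codon recognition and subunit joining, 5 of 6 were called higher and 0 lower, with a median of 0.68, against 17% higher and 22.3% lower over all tested probe sets. These 6 were grouped with the data known, no test of the group was made, and Eif1a and Eif1ax may share signal. eIF1A, which keeps the scanning small subunit open and the tRNA in place, is encoded by Eif1a and by the near-identical Eif1ax. Eif1a measured 57.8 and 77.0 in fresh CD4+, 217.1 and 158.6 in fresh CD8+ and 113.3 and 102.3 in fresh DN cells. After culture it measured 241.9 and 461.5 in CD4+, 337.6 and 181.2 in CD8+ and 327.6 and 175.9 in DN cells. The cultured values exceeded the fresh ones in CD4+ and DN cells and overlapped them in CD8+ cells. The mean difference was 1.23 ± 0.26 (limma adjusted p = 0.00398), and in CD4+ cells, where both fresh arrays lay below the floor, cultured cells were at least 3.47-fold higher (adjusted p = 0.00885; 0.0719 without fresh CD4+ replicate 1). The at-least fold here and below sets the mean log2 value of the brighter group against the floor, or against the dim probe set's own value where that is higher. A second Eif1a probe set gave 1.43 ± 0.29 (adjusted p = 0.00275) and at least 2.39-fold in CD4+ cells.

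Eif1ax measured 220.1 and 202.3 in fresh CD4+, 219.0 and 310.0 in fresh CD8+ and 270.8 and 389.1 in fresh DN cells. Cultured arrays measured 531.8 and 384.4, 485.6 and 402.2, and 363.0 and 462.5, so CD4+ and CD8+ values separated and DN values overlapped. Its mean difference was 0.72 ± 0.19 (limma adjusted p = 0.0108). Its second probe set, above the floor on 4 arrays, gave 0.49 ± 0.23 and was not called (adjusted p = 0.113).

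Eif6 encodes a factor that holds the large subunit apart from the small one and is needed to build it. It measured 220.6 and 302.7 in fresh CD4+, 130.3 and 388.3 in fresh CD8+ and 322.0 and 448.5 in fresh DN cells. Cultured CD8+ cells stood highest, at 833.4 and 946.2, above 483.4 and 563.4 in CD4+ and 361.0 and 477.6 in DN cells. The CD8+ difference of 1.96 ± 0.44 was the only higher call in that subset (limma adjusted p = 0.0218), while DN cells showed 0.13 ± 0.44. That the effects differ between CD8+ and DN cells did not pass (1.83 ± 0.62, adjusted p = 0.998). Without fresh CD8+ replicate 1, the CD8+ difference was 1.19 and was not called (adjusted p = 0.0959); it also lost its call without cultured CD8+ replicate 1 (0.12) or replicate 2 (0.115). The same 1.19 was called without all 3 arrays of high Gapdh ratio (limma adjusted p = 0.033).

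Eif5, the GTPase activator of eIF2, measured 305.0 and 386.3 in fresh and 700.2 and 1017.3 in cultured CD4+ cells. CD8+ values overlapped, at 593.9 and 413.7 fresh and 444.7 and 507.8 cultured, and DN values were 392.3 and 613.1 fresh and 614.0 and 706.7 cultured. The mean difference of 0.55 ± 0.19 passed narrowly (limma adjusted p = 0.0381). In CD4+ cells alone it was 1.29 ± 0.33 (adjusted p = 0.0208; 0.138, 0.082 and 0.0537 without fresh CD4+ replicate 1, fresh CD4+ replicate 2 and cultured CD4+ replicate 2), against -0.06 ± 0.33 in CD8+ cells, a contrast that did not pass as a difference between subsets (-1.35 ± 0.46, adjusted p = 0.542). Eif5b, the subunit joining GTPase, measured 75.8 and 80.8 fresh against 146.1 and 211.5 cultured in CD4+ cells. In DN cells it measured 82.4 and 72.9 fresh against 165.2 and 124.8 cultured, so both subsets lay below the floor when fresh and above it after culture. CD8+ cells were already above it when fresh, at 204.2 and 131.2, and measured 186.9 and 142.5 cultured. Its mean difference was 0.63 ± 0.22 (adjusted p = 0.0396), at least 1.85-fold in CD4+ and at least 1.52-fold in DN cells, neither subset being called alone (0.0669 and 0.195). The mean calls of Eif5 and Eif5b each failed when any of several single arrays was left out, as listed under the processing alternatives. The sixth gene, Eif1b, a close copy of the start codon gatekeeper eIF1, differed by -0.44 ± 0.16 and was not called (adjusted p = 0.0512).

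**Figure D2:**
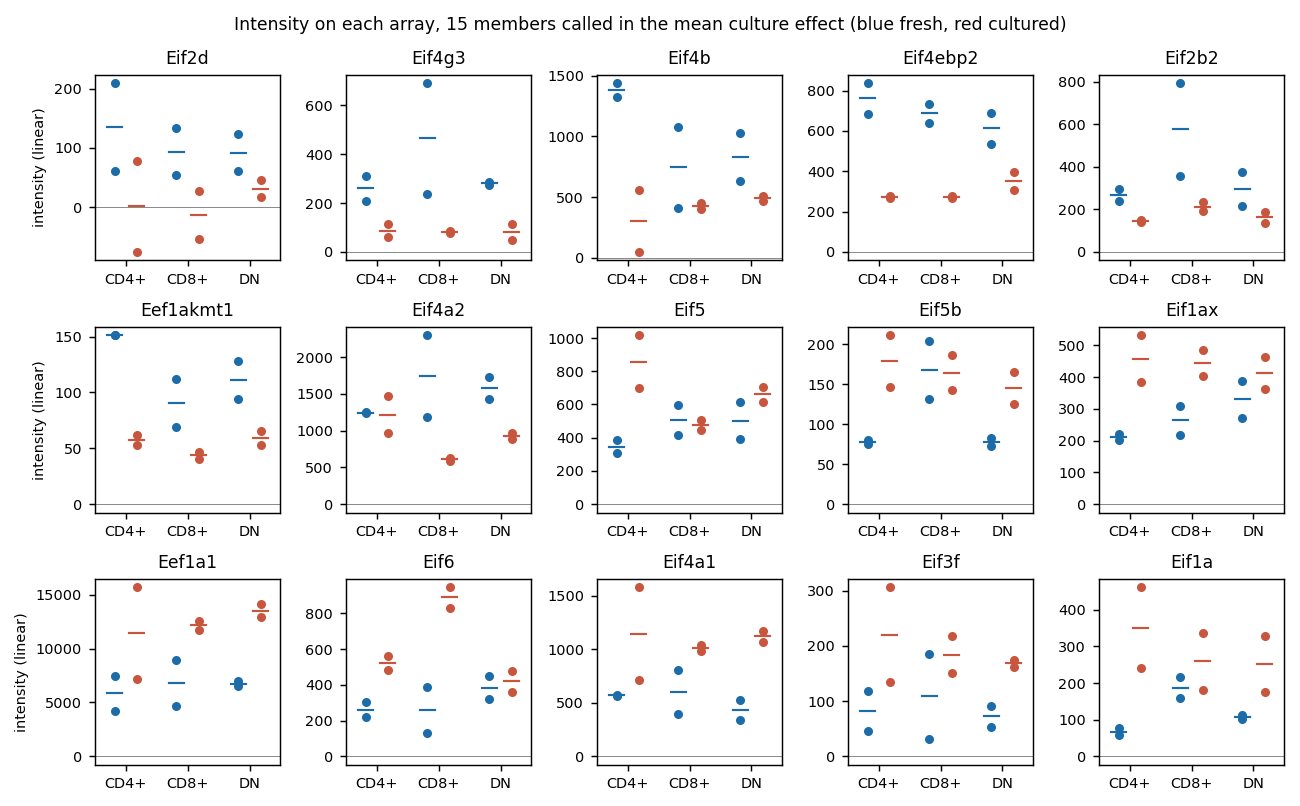
Intensity on each array (linear scale) of the 15 genes called in the mean culture effect; blue points are fresh and red points cultured arrays of each subset, and bars are group means. Eif4ebp2, Eif4g3 and Eef1akmt1 have all 6 cultured values below all 6 fresh ones, whereas Eif6 stands highest in cultured CD8+ cells.

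Among the cap complex genes, 1 of 6 tested was called higher and 3 lower, against 17% and 22.3% over all tested probe sets. No test of this group was made. The 2 helicase genes moved in opposite directions. eIF4A is the RNA helicase that unwinds leaders, and Eif4a1 and Eif4a2 encode closely similar forms. Eif4a1 measured 562.0 and 576.9 in fresh CD4+, 395.6 and 809.1 in fresh CD8+ and 522.0 and 342.3 in fresh DN cells. Cultured values were 708.8 and 1577.3, 1037.3 and 980.6, and 1172.2 and 1068.0, above the fresh ones within every subset. Averaged over the subsets the difference was 1.04 ± 0.24 (limma adjusted p = 0.00637), with 0.89 in CD4+, 0.83 in CD8+ and 1.40 in DN cells, none called alone. Eif4a2 measured 1251.7 and 1236.3 in fresh CD4+, 2297.2 and 1188.3 in fresh CD8+ and 1428.5 and 1727.9 in fresh DN cells. After culture it measured 964.6 and 1467.3 in CD4+, 591.0 and 624.3 in CD8+ and 890.2 and 972.4 in DN cells. Cultured CD8+ and DN values lay below the fresh ones, while CD4+ values overlapped. Its mean difference was -0.75 ± 0.19 (adjusted p = 0.00975) and its CD8+ difference -1.44 ± 0.33 (adjusted p = 0.0226). The CD8+ call was lost without fresh CD8+ replicate 1 (-0.97, adjusted p = 0.117), where Eif4a2 was highest, and without either cultured CD8+ array (0.156 and 0.0973). Without all 3 arrays of high Gapdh ratio the same -0.97 was called (limma adjusted p = 0.029), and the mean difference was -0.47 (0.0262).

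The difference Eif4a1 minus Eif4a2 within an array joins both changes. It ran from -2.53 to -0.55 on the 6 fresh arrays and from -0.44 to 0.81 on the 6 cultured ones. The pair was picked with both calls known, so this restates them and adds no support. The offset between the probe sets has no meaning here, only its shift. The lowest value, -2.53, belonged to fresh CD8+ replicate 1, the array with the highest Gapdh ratio. The cultured array nearest the fresh ones was cultured CD4+ replicate 1, at -0.44, which has the next highest.

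**Figure D3:**
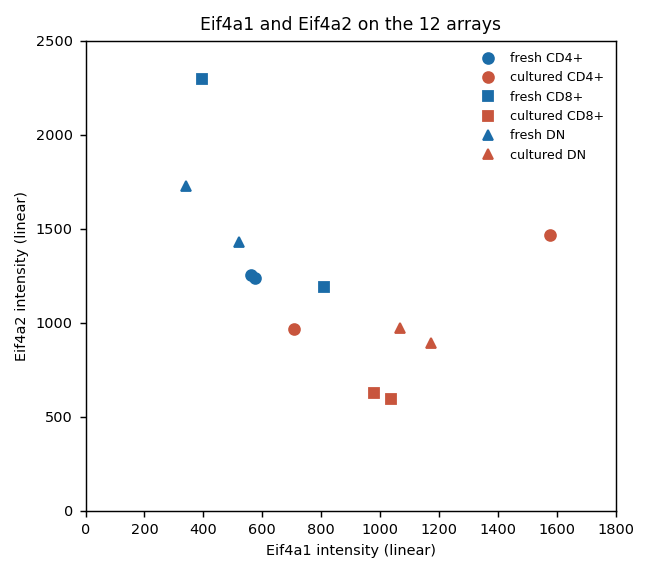
Intensity of Eif4a1 (horizontal) against Eif4a2 (vertical), both linear, 1 point per array; colour gives fresh or cultured and shape the subset. Cultured CD8+ and DN arrays lie to the lower right of the fresh ones; cultured CD4+ replicate 2 is high for both genes (1577.3 and 1467.3), and cultured CD4+ replicate 1 lies left of fresh CD8+ replicate 2 (Eif4a1 708.8 against 809.1).

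Eif4g3 encodes eIF4GII, a scaffold that joins the cap-binding protein, the helicase and eIF3. Fresh arrays measured 309.5 and 210.2 in CD4+, 692.2 and 239.1 in CD8+ and 273.3 and 287.5 in DN cells. Cultured arrays measured 113.5 and 60.8, 85.5 and 76.8, and 113.2 and 49.2. Each cultured value was below every fresh one. Across the subsets it differed by -1.84 ± 0.31 (limma adjusted p = 0.000973), and in CD8+ cells, where both cultured arrays lay below the floor, fresh cells were at least 4.23-fold higher (adjusted p = 0.0275). That fold rests in part on fresh CD8+ replicate 1, without which the difference in CD8+ cells was -1.47 and was not called (0.159). Without all 3 arrays of high Gapdh ratio, that array among them, the same -1.47 was called (0.0253). Leaving out either cultured CD8+ array also ended the CD8+ call (0.145 and 0.125), and leaving out fresh DN replicate 2 did so narrowly (0.0512). The scaffold relative Eif4g2 differed by 0.18 ± 0.24 and was not called (adjusted p = 0.556).

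Eif4b, which stimulates the helicase, measured 1327.6 and 1439.2 in fresh CD4+, 409.9 and 1078.5 in fresh CD8+ and 1026.7 and 632.9 in fresh DN cells. Cultured arrays measured 47.8 and 553.9 in CD4+, 401.8 and 447.7 in CD8+ and 468.2 and 507.6 in DN cells. All cultured values but the lowest lay in a narrow band, and that lowest one came from cultured CD4+ replicate 1. On average Eif4b differed by -1.44 ± 0.47 (limma adjusted p = 0.031). The CD4+ difference of -2.96 ± 0.81 (adjusted p = 0.0284) became -1.32 without that array and was not called (0.124); it also lost its call without fresh CD4+ replicate 1 (0.107) or replicate 2 (0.14). Without all 3 arrays of high Gapdh ratio, which leaves out that array too, -1.32 was called (limma adjusted p = 0.0152). The second Eif4b probe set gave a mean difference of -0.81 ± 0.25 (adjusted p = 0.0258). Eif4e2, a relative of eIF4E that represses translation, differed by 0.47 ± 0.21 and was not called (adjusted p = 0.095), nor was its second probe set (1.00 ± 0.38, 0.0586).

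Of the eIF4E inhibitors, Eif4ebp2 was called lower, with the smallest adjusted p of all members. Its representative probe set measured 838.0 and 686.2 in fresh CD4+, 733.4 and 640.4 in fresh CD8+ and 690.1 and 535.7 in fresh DN cells. Cultured arrays measured 268.0 and 276.9, 275.2 and 265.6, and 308.0 and 394.1, all below all fresh values. Over the subsets Eif4ebp2 differed by -1.20 ± 0.16 (limma adjusted p = 0.000205), with calls in CD4+ (-1.47 ± 0.27, 0.00501) and CD8+ cells (-1.33 ± 0.27, 0.0131) and none in DN cells (-0.80 ± 0.27, 0.0852). Among single arrays, leaving out fresh CD4+ replicate 1 ended the CD4+ call (0.0621), and leaving out fresh CD8+ replicate 1 (0.0634), cultured CD8+ replicate 1 (0.093) or cultured CD8+ replicate 2 (0.0781) ended the CD8+ call. Without all 3 arrays of high Gapdh ratio both were called (limma adjusted p = 0.00729 and 0.0194). The second Eif4ebp2 probe set disagreed: it gave -0.48 ± 0.80, was not called (adjusted p = 0.651), and ranged from 98.2 to 457.9 on fresh and from -128.3 to 480.0 on cultured arrays. Eif4ebp1, the better known 4E-BP, measured 73.3 to 119.1 fresh and 44.5 to 99.6 cultured and was not called (-0.28 ± 0.25, 0.404).

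Among eIF2 and its exchange factor eIF2B, 0 of 8 tested genes were called higher and 2 lower, with a median of -0.47. Over all tested probe sets 17% were called higher and 22.3% lower, with a median of -0.02, and no test of the group was made. Eif2b2, the beta subunit of eIF2B, measured 237.0 and 296.2 in fresh CD4+, 356.8 and 793.2 in fresh CD8+ and 215.0 and 377.1 in fresh DN cells. Cultured arrays measured 152.0 and 142.1, 191.0 and 232.7, and 135.7 and 188.8. Cultured values lay below fresh ones within every subset, although cultured CD8+ replicate 2 exceeded fresh DN replicate 1. On average it differed by -0.99 ± 0.24 (limma adjusted p = 0.00873). With the block, Eif2b2 was also called in CD8+ cells (adjusted p = 0.0275, against 0.084 without it). The other measured eIF2B subunits were not called: Eif2b1 differed by -0.56 ± 0.26 (adjusted p = 0.104), Eif2b4 by -0.75 ± 0.40 (0.158) and Eif2b5 by -0.39 ± 0.29 (0.302). Their estimates were all below 0.

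Eif2d, which can place tRNA on the ribosome without eIF2, was dim. It measured 60.8 and 209.3, 54.0 and 134.2, and 123.8 and 60.7 on fresh CD4+, CD8+ and DN arrays. All 6 cultured values lay below the floor, at -74.7 and 78.0, -53.1 and 28.2, and 46.2 and 17.5. The mean difference of -1.94 ± 0.67 (limma adjusted p = 0.04) is stretched by values below 0. The CD4+ values overlapped (fresh 60.8 against cultured 78.0), and CD4+ cells alone were not called (adjusted p = 0.165). With values under the floor set to the floor the mean difference was -0.36 and was not called (0.167). The eIF2 subunit genes were not called either. Eif2s3x, the gamma subunit, stayed between 725.5 and 1174.4 on all arrays (-0.14 ± 0.15, adjusted p = 0.476), and Eif2s2, the beta subunit, differed by 0.80 ± 0.34 (0.0835).

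Of the genes of eIF3, the large scaffold that holds the small subunit and the mRNA, 1 of 10 tested was called higher and 0 lower. Their median was -0.01, and the background was 17% higher and 22.3% lower over all tested probe sets. Eif3f measured 118.0 and 46.7, 186.0 and 31.1, and 91.3 and 53.2 on fresh CD4+, CD8+ and DN arrays. Cultured arrays measured 306.2 and 134.8, 217.6 and 150.5, and 174.9 and 162.7, above the fresh ones in CD4+ and DN cells. The mean difference was 1.17 ± 0.39 (limma adjusted p = 0.035), and at least 1.77-fold in DN cells. This call was lost without any 1 of 8 arrays, among them fresh CD8+ replicate 2 (0.81, adjusted p = 0.0771) and cultured CD4+ replicate 1 (0.97, 0.0763). Eif3a, the largest subunit, ranged from 238.4 to 440.3 and was not called (-0.20 ± 0.16, 0.354), and the remaining subunits differed by -0.41 (Eif3k) to 0.47 (Eif3j1).

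Of the elongation genes, 1 of 5 tested was called higher and 1 lower, against 17% and 22.3% over all tested probe sets. Eef1a1, the main tRNA carrier and the member of highest mean intensity, measured 7488.3 and 4186.2 in fresh CD4+, 8904.6 and 4649.5 in fresh CD8+ and 6973.5 and 6544.6 in fresh DN cells. Cultured arrays measured 7157.9 and 15687.1 in CD4+, 12535.9 and 11765.9 in CD8+ and 12896.8 and 14167.2 in DN cells. All cultured values but that of CD4+ replicate 1 exceeded every fresh one. The mean difference was 0.95 ± 0.24 (limma adjusted p = 0.00933). The 99th percentile of intensity was 2874 to 3436 on fresh and 3788 to 4408 on cultured arrays. Of 23 tested ribosomal protein genes, 19 had a mean difference above 0, with a median of 0.26, and Rpl10a had -0.08. Eef2 differed by -0.09, with -1.27 in CD4+ and 0.90 in CD8+ cells. With quantile normalization, which gives all arrays the same distribution, the Eef1a1 difference was 0.26 and was not called (limma adjusted p = 0.18). The part of the higher percentile in the Eef1a1 difference was not tested. The relative Eef1a2 differed by 0.17 ± 0.18 (0.48).

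Eef1akmt1 encodes a methyltransferase of eEF1A. It measured 151.2 and 151.0, 69.3 and 112.0, and 128.4 and 93.7 on fresh CD4+, CD8+ and DN arrays. All 6 cultured values were lower and below the floor, at 53.1 and 61.8, 46.7 and 40.7, and 65.3 and 53.0. The mean difference was -0.95 ± 0.23 (limma adjusted p = 0.00768); fresh cells were at least 1.60-fold higher in CD4+ and at least 1.18-fold higher in DN cells. The CD4+ call on its own (adjusted p = 0.0498) sat at the threshold and failed without any single array other than cultured CD4+ replicate 2 and the 2 fresh CD8+ arrays (0.0609 to 0.224). Eef2, the translocase, was not called (-0.09 ± 0.28, 0.803), nor was Eef1d, an exchange factor of eEF1A (-0.39 ± 0.35, 0.391).

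Taking each of the 12 arrays as it stands, 3 of the 37 members (Eef1akmt1, Eif4ebp2 and Eif4g3) had every cultured array below every fresh one, against a background of 10.1%. By the same measure 0 members had every cultured array above every fresh one, against a background of 7.68%. For 34 members the 2 conditions overlapped.

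Within single subsets fewer members passed. In CD4+ cells limma called 3 higher (Eif1a, Eif1ax and Eif5) and 3 lower (Eef1akmt1, Eif4b and Eif4ebp2), 8.11% each way, against a background of 7.53% higher and 10.9% lower. With the block the CD4+ count was 14, 7 each way, adding Eif3f, Eif3j1, Eif5b, Eif6, Eef1d, Eef2, Eif3k and Eif4g3. The background with the block was 12.8% higher and 16.2% lower. The Eif1ax call in CD4+ cells (1.09 ± 0.32, adjusted p = 0.0386) was lost without fresh CD4+ replicate 1 (0.137), fresh CD4+ replicate 2 (0.203), cultured CD4+ replicate 1 (0.175), fresh DN replicate 2 (0.051), either cultured CD8+ array (0.0571 and 0.0572) or cultured DN replicate 2 (0.0504). Leaving out fresh CD4+ replicate 1 brought the CD4+ count to 0 and fresh CD4+ replicate 2 to 2, while leaving out fresh CD8+ replicate 1, fresh CD8+ replicate 2 or cultured CD4+ replicate 2 raised it to 10, 11 and 13. Once the 3 arrays of high Gapdh ratio were left out, cultured CD4+ replicate 2 stood alone for its group. The CD4+ difference was then 1.49 for Eef1a1, 1.47 for Eif4a1, 1.34 for Eif5b, 1.12 for Eif6 and 0.85 for Eif1ax. For Eif4g3 it was -1.91 and for Eef1akmt1 -1.16. In CD8+ cells 1 was called higher (Eif6, 2.7%) and 3 lower (Eif4a2, Eif4ebp2 and Eif4g3, 8.11%), against 4.01% and 4.12%. None of these calls held without fresh CD8+ replicate 1 or without either cultured CD8+ array, fits that leave 1 array in a group. Without fresh CD8+ replicate 1 a different member, Eif2b2, stood out at -1.90. All of these calls held without the 3 arrays of high Gapdh ratio, which also leaves 1 array in some groups.

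In DN cells limma called 0 members, against a background of 4.21% higher and 5.7% lower. An unadjusted p under 0.05 was reached by 7 of the 37 members and by 1640 of all 6159 tested probe sets. The smallest adjusted p there was that of Eif4a1 (0.0578), followed by Eif4g3 (0.0579). Both were called with the block (0.0411 and 0.0145, with a background of 7.23% higher and 9.64% lower) and without any 1 of the arrays of fresh CD8+ or cultured CD4+ cells. Without the 3 arrays of high Gapdh ratio, the DN difference was 1.33 for Eif4a1, -2.28 for Eif4g3 and 1.07 for Eef1a1. A call in one subset and none in another does not show that they differ.

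**Figure D4:**
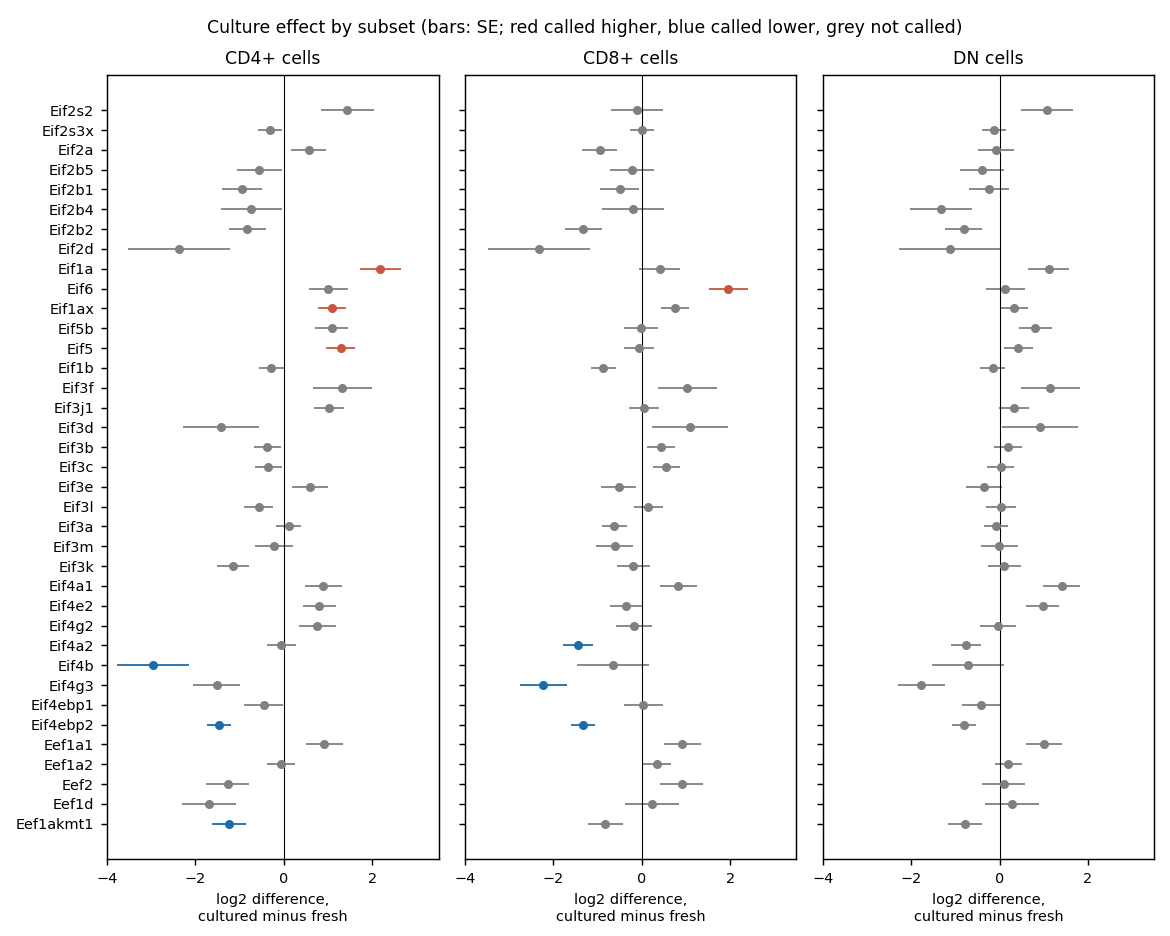
Log2 difference of cultured minus fresh in each subset for the 37 tested genes, with SE bars, in the order of the plot of mean effects; red points were called higher, blue lower, grey not called. The estimates for Eif4ebp2 and Eif4g3 lie below 0 in all 3 subsets, and Eif6 stands out in CD8+ cells at 1.96.

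The difference between subsets in their culture effect was tested directly, and limma called 0 members in each of its 3 contrasts. For CD8+ against CD4+ cells, 7 of the 37 members and 525 of all 6159 tested probe sets had an unadjusted p under 0.05. The smallest adjusted p of a member was 0.512, and 0% of all tested probe sets were called. For CD8+ against DN cells 2 members and 250 of all probe sets had an unadjusted p under 0.05 (smallest adjusted p of a member 0.998, 0% of all called). For DN against CD4+ cells these were 2 and 127 (0.999, 0% of all called). Eif1a had the estimates 2.18 in CD4+ and 0.41 in CD8+ cells, a difference of -1.78 ± 0.64 (limma adjusted p = 0.549). Eef2 had -1.27 ± 0.48 in CD4+ and 0.90 ± 0.48 in CD8+ cells, a difference of 2.17 ± 0.69 (0.512).

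Between subsets of the same condition limma also called 0 members, in every one of the 6 contrasts. In fresh cells the shares of all probe sets called were 1.98% for CD8+ minus CD4+, 1.43% for CD8+ minus DN and 0% for DN minus CD4+. There 4, 2 and 0 of the members had an unadjusted p under 0.05, beside 683, 583 and 81 of all 6159 tested probe sets. The lowest adjusted p in fresh cells was for Eif1a, at 1.35 ± 0.46 higher in CD8+ than in CD4+ cells (0.222). In cultured cells the shares of all probe sets called were 2.29% for CD8+ minus CD4+, 1.3% for CD8+ minus DN and 0% for DN minus CD4+. Here 8, 2 and 1 of the members had an unadjusted p under 0.05, beside 940, 647 and 235 of all 6159 tested probe sets. The lowest adjusted p in cultured cells was for Eif3k, at 1.17 ± 0.37 higher in CD8+ than in CD4+ cells (0.151). With the block, 0 members were called in these contrasts as well.

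Several of these estimates rest on cultured CD4+ replicate 1. It measured 47.8 for Eif4b, 110.3 for Eif3d, 91.1 for Eef1d and 937.6 for Eef2, whereas cultured CD4+ replicate 2 measured 553.9, 1097.3, 439.2 and 2474.1. Without replicate 2, so that replicate 1 stood alone for the group and was assumed to vary like the others, limma called these 4 genes in cultured CD8+ minus CD4+ cells (adjusted p = 0.00696, 0.0108, 0.0142 and 0.0198). The same removal called the 4 genes in the difference of culture effects between CD8+ and CD4+ cells (0.0173, 0.0301, 0.0351 and 0.0377), and Eif4b, Eif3d and Eef1d in cultured DN minus CD4+ cells and in the DN and CD4+ difference. Without fresh CD8+ replicate 2, Eif3e was called in fresh CD8+ minus CD4+ cells (1.52, 0.0265). In that group replicate 1 measured 1418.9 and replicate 2 510.0.

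The 2 arrays of highest Gapdh ratio, fresh CD8+ replicate 1 and cultured CD4+ replicate 1, were the 2 lowest of all 12 for 5 of the 37 members: Eef1d, Eef2, Eif3b, Eif3c and Eif3d. Eef2 measured 1370.5 and 937.6 on them and 2474.1 to 4777.0 on the other 10. Eif3c measured 1044.7 and 1025.0 there and 1486.1 to 2079.2 elsewhere. They were the 2 highest for 1 member, Eif2s2 (159.1 and 139.5, against 25.1 to 118.7). Over all tested probe sets, 4.68% had both arrays below the other 10 and 3.25% above. The 2 arrays differ in subset and condition, and the part of RNA quality in these values was not tested.

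The 3 pairs of members with the most alike patterns over the 12 arrays were Eef2 and Eif3c (Pearson r = 0.94), Eif1a and Eif5b (0.92), and Eif3b and Eif3c (0.92). These are descriptions over 12 arrays that share groups and quality; Eef2, Eif3b and Eif3c share the 2 low arrays just named. Eif1a and Eif5b share low values in fresh CD4+ and fresh DN cells.

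Other genes of translation control were read from lists chosen by general knowledge, and their counts are descriptions beside the same background of 17% higher and 22.3% lower. Of the 2 tested eIF2 kinases of 4 on the array, Eif2ak4, which encodes the amino acid sensor GCN2, was called lower. It measured 169.2 to 266.8 on fresh and 35.1 to 85.8 on cultured arrays, so every cultured value was below every fresh one and below the floor (-1.49 ± 0.21, limma adjusted p = 0.00035). Eif2ak3, which encodes PERK, showed 0.00 ± 0.25 (0.994). Among 10 tested genes of the integrated stress response, the programme that follows eIF2 phosphorylation, 2 were called higher and 1 lower, with a median of -0.20. Slc7a11, a cystine transporter, differed by 1.52 ± 0.47 (0.0253) and Asns, which makes asparagine, by 0.90 ± 0.30 (0.0358). Atf3, a transcription factor of that programme, fell by 1.13 (SE 0.20, adjusted p = 0.00153), from 2179.0 to 3221.3 fresh to 658.9 to 1936.1 cultured. The members of this list that moved did so in both directions. With the block, Atf4, the central transcription factor of the programme, was called higher too, for a count of 3 (0.48 ± 0.18 and an adjusted p of 0.0573 without the block). Without the 3 arrays of high Gapdh ratio, Asns was not called. Ppp1r15a and Ppp1r15b, which direct the dephosphorylation of eIF2, were called there in opposite directions, Ppp1r15a lower and Ppp1r15b higher. With all arrays they differed by -0.28 ± 0.33 and 0.58 ± 0.24, and neither was called.

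Of 12 tested regulators of mTOR and eIF4, 0 were called higher and 3 lower, with a median of -0.13. Ddit4, an mTOR inhibitor induced by stress, measured 754.9 and 783.0 in fresh CD4+, 60.3 and 159.4 in fresh CD8+ and 706.5 and 1132.4 in fresh DN cells, and -123.8 to 72.9 on all cultured arrays. Its difference of -4.66 ± 0.62 (limma adjusted p = 0.00024) is inflated by values below 0. Pdcd4, an inhibitor of the eIF4A helicase, measured 159.8 to 386.9 fresh and 23.7 to 99.9 cultured, with no overlap (-1.73 ± 0.28, 0.000859). Tsc2, a brake on mTOR, differed by -0.69 ± 0.22 (0.0323). With the block, and also without the 3 arrays of high Gapdh ratio, Mknk1, a kinase of eIF4E, was called lower too, for a count of 4 (-2.22 ± 0.82 and an adjusted p of 0.052 without the block).

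Among 10 tested genes of termination and poly(A) binding, 1 was called higher and 0 lower, with a median of 0.25. Etf1, the release factor that reads stop codons, measured 356.5 to 585.0 on fresh and 898.9 to 1076.1 on cultured arrays, without overlap (1.18 ± 0.14, limma adjusted p = 9.93e-05). With the block, Ddx3x and Gspt2 were called higher too, for a count of 3. Of 19 tested aminoacyl-tRNA synthetase genes, 1 was called higher and 2 lower, with a median of 0.06. Eprs, for glutamate and proline, differed by 1.38 ± 0.23 (0.00102), Vars, for valine, by -1.36 ± 0.24 (0.00128) and the scaffold Aimp1 by -1.11 ± 0.22 (0.00268). With the block, Gars was called lower too, for 1 higher and 3 lower, against 22.3% and 25.6% of all tested probe sets. Without the 3 arrays of high Gapdh ratio, which leaves 1 array in some groups, the median of the synthetase genes was 0.02. Of 4 tested mitochondrial factors, 0 were called higher and 1 lower with a median of -0.63: Mtif2, the mitochondrial initiation factor, at -1.28 ± 0.21 (0.00103). With the block Tsfm was called lower too, for a count of 2.

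Of 23 tested cytoplasmic ribosomal protein genes, 6 were called higher and 1 lower, with a median of 0.26. Rpl41 differed by 0.97 ± 0.20 (limma adjusted p = 0.00288), Rplp0 by 0.88 ± 0.18 (0.00374) and Rps24 by 0.76 ± 0.19 (0.00887). Rpl13a went the other way, at -0.73 ± 0.15 (0.0029). Rpl41 measured 4606.0 to 10261.1 on fresh and 10982.2 to 14828.9 on cultured arrays. Like Eef1a1 it lies above the 99th percentile of intensity, which was higher on cultured arrays, and the part of that in its difference was not tested. Without the 3 arrays of high Gapdh ratio, which leaves 1 array in some groups, the median of the 23 ribosomal protein genes was 0.47.

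**Figure D5:**
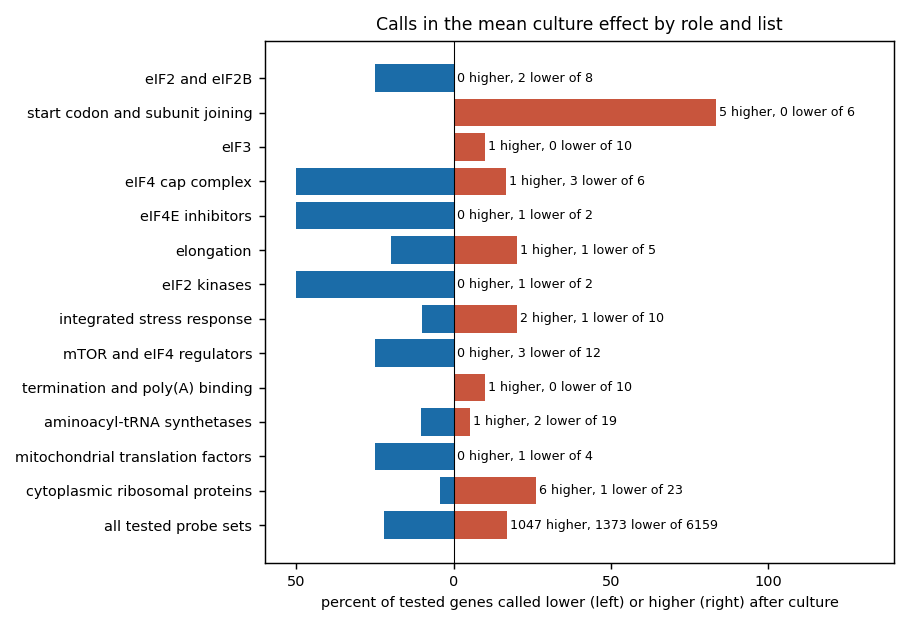
Percent of tested genes called higher (red, to the right) or lower (blue, to the left) in the mean culture effect, for the 6 roles of the members, the 7 other lists and all tested probe sets, with counts written beside the bars. The start codon and subunit joining group has 5 of 6 called higher, against 17% over all tested probe sets; the groups are small and were not tested.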

How the data were processed

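The authors deposited 1 linear Average Difference intensity per probe set and array, globally scaled, per the labels; the software, its version and the target: not given in the sources used here. Of 12488 probe sets, 66 controls were left out. By the platform annotation 10833 of the rest had 1 symbol, 1193 had none, and 396 had several and were left unnamed. Intensities went to the generalised log2 scale (offset 45.69, from the size of negative values, as the median array's root mean square; floor 2 times that). Log2 differences understate changes of dim probe sets, except where values lie below 0. With limma 3.58.1 in R 4.3.3, 1 mean per group was fitted over all 12 arrays (lmFit, eBayes with trend and robust), Benjamini-Hochberg over 6159 probe sets. The mean culture effect was also fitted on simulated data with independent noise on each array. That simulation held no pairing and no unequal array quality, so it cannot show error control under them. The number of arrays limits precision. Replicates were numbered by the experiment number in the labels; deviations of same-numbered arrays from their group means correlated at 0.106 to 0.444 in all 15 pairs of groups, so the numbers were taken as pairing. The main fit has no block, so its SEs and adjusted p-values ignore this pairing. Calls of members that change with the block are given beside it, and for the other lists those of the mean culture effect. With the block, limma called 9 members higher and 8 lower in the mean effect, against 22.3% and 25.6% of all tested probe sets. Members named are those called in any contrast, a set of well-known factors, the brightest and dimmest, and their other probe sets; from other lists, the genes of lowest p and up to 4 called. Members, lists and rules were chosen with earlier results of these data known. Alternatives covered the offset, a hard floor, the filter, normalization, the block, the groups fitted, array weights, moderation, the representative probe set and leaving out arrays. Promoters came from RefSeq (GRCm38.p6).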

Additional observations from a re-analysis of the deposited data

How the results depend on the processing

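Of the 15 calls in the mean culture effect, 7 held in every alternative run (Eef1akmt1, Eif1a, Eif2b2, Eif4a1, Eif4a2, Eif4g3 and Eif6) and 3 were lost in 1: Eef1a1 with quantile normalization, and Eif1ax and Eif4ebp2 with the other probe set. Eif2d, Eif3f, Eif4b, Eif5 and Eif5b each lost theirs in at least 9, all of them without the filter on dim probe sets. Among single arrays, Eif5 was lost without either fresh CD4+, cultured CD8+ or cultured DN array, fresh CD8+ replicate 2, fresh DN replicate 1 or cultured CD4+ replicate 2; Eif5b without either fresh CD4+, fresh DN or cultured CD8+ array, fresh CD8+ replicate 2, cultured CD4+ replicate 2 or cultured DN replicate 1; Eif4b without any but fresh CD8+ replicate 1 and the 2 cultured CD4+ arrays; and Eif2d without fresh CD4+ replicate 2, fresh CD8+ replicate 2, cultured CD4+ replicate 1, cultured CD8+ replicate 1 or any DN array. Eif3f was lost without fresh replicate 2 of any subset, cultured CD4+ replicate 1 or any cultured CD8+ or DN array. Over all 37 tested members, the mean culture effect changed sign in some alternative for 8, none of them called in the fit as reported: Eif2a, Eif3b, Eif3c, Eif3d, Eif3e, Eif3l, Eef1a2 and Eef2. Among the factors named by rule this was Eef1a2 without the 3 arrays of high Gapdh ratio (-0.01) and Eef2 (0.14) without fresh CD8+ replicate 2 or cultured CD4+ replicate 1, with -0.33 to 0.14 over single arrays left out. The count of members called in CD4+ cells, 6, became 3 without the filter, with array weights or with the lowest-mean probe sets. It became 0 when only the groups compared were fitted and 14 with the replicate block. In CD8+ cells, 4 became 1 with only the groups compared. In DN cells, 0 became 1 with quantile normalization, 2 with the block and 3 with only the groups compared or with array weights. Without the 3 arrays, 1 member (Eif4a2) was called in cultured CD8+ minus CD4+ cells (-1.27, limma adjusted p = 0.0179). Leaving out single arrays gave 10 to 18 calls in the mean effect, 0 to 13 in CD4+, 0 to 5 in CD8+ and 0 to 2 in DN cells, 0 to 1 in fresh and 0 to 4 in cultured CD8+ minus CD4+ cells, 0 to 3 in cultured DN minus CD4+ cells, 0 to 4 and 0 to 3 in the differences of culture effect of CD8+ and of DN from CD4+ cells, and 0 in the other contrasts. The replicate block changed no other member's call than those given in the report. Median centring moved the median log2 difference of all probe sets from -0.04 to 0.08 in the CD8+ culture effect, from -0.06 to 0.04 in cultured CD8+ minus CD4+ and from -0.09 to 0.02 in cultured CD8+ minus DN cells; in the other contrasts, and with quantile normalization, it moved by less than 0.1. The cause of these changes was not tested; 2 arrays a group and signals near the floor limit what can be detected.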
